A study of Mus musculus with 6 samples.

Results

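PDGF, FGF and EGF signalling genes were followed in pMEFs (primary mouse embryonic fibroblasts, the connective-tissue cells that grow out of a dissociated embryo) of the HAT1 WT and HAT1 KO genotypes, HAT1 being a histone acetyltransferase. The members were 10 genes chosen with earlier results of these data known. These were the receptors Pdgfra, Pdgfrb, Fgfr1, Fgfr2 and Egfr and the ligands Pdgfa, Pdgfc, Fgf2, Fgf7 and Fgf10. They were found by their symbol in a table of 17512 genes, where all 10 had a row, and all 10 passed the filter on low counts that left 14773 genes for testing. RNA was sequenced from 6 lines, 3 with the genotype HAT1 WT (lines 36, 47 and 78) and 3 with the genotype HAT1 KO (lines 33, 41 and 72). All lines had a C57bl6 strain background and were grown in DMEM with serum and antibiotics, so both genotypes were measured in a medium that itself supplies growth factors. According to the methods of the study, its fibroblasts were derived from midgestation embryos after the internal organs were taken out. The methods describe embryos of the HAT1+/+ and HAT1-/- genotypes, with no Cre driver or single cell type named, and the labels do not say whether lines came from the same litter.

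PDGF, FGF and EGF receptors are receptor tyrosine kinases of the cell surface. A ligand brings receptor molecules together, they phosphorylate each other, and adaptor proteins carry the signal to the Ras-MAPK and PI3K-AKT cascades, which drive division, survival and movement. Fibroblasts are a classical target of PDGF, and FGF7 and FGF10 are made by mesenchymal cells to act on the FGFR2 of neighbouring epithelium.

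The genes lie apart in the genome (GENCODE M21 models on GRCm38, counted over all exons). Of the receptors, Pdgfra at chr5:75152292-75198215 (plus strand), Pdgfrb at chr18:61045150-61085061 (plus strand), Fgfr1 at chr8:25513654-25575718 (plus strand) and Egfr at chr11:16752203-16918158 (plus strand) were joined by Fgfr2, whose longer model is given with its values. The ligands are Pdgfa at chr5:138976014-138997370 (minus strand), Pdgfc at chr3:81036416-81214040 (plus strand), Fgf2 at chr3:37348346-37410108 (plus strand), Fgf7 at chr2:126034658-126091185 (plus strand) and Fgf10 at chr13:118669791-118792115 (plus strand). Exons of Pdgfra, Pdgfc, Fgfr1 and Fgf10 share 456, 147, 164 and 123 bases with an annotated antisense gene, whose reads may not have been separated, since use of strand was not stated.

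Libraries held between 67720628 and 98786746 counts. Hat1 was lower in the KO lines, at 10.2 ± 0.146 CPM (counts relative to library size, after TMM scaling) against 20.2 ± 2.80 CPM in the WT lines (SD, n = 3 per genotype). Its log2 fold change was -0.99, and edgeR's quasi-likelihood test gave an adjusted p-value of 0.0376. The KO lines thus kept 50.4% of the WT level of Hat1 RNA, and counts per gene do not show which part of the gene those reads came from. KO line 72 stood apart from the other lines on the first principal component of all tested genes, at 83.9 against -22.8 to -10.6. Y-linked genes were high in WT lines 36 and 47 alone (13788 and 12841 counts for 4 genes, against 4 to 231 elsewhere). Xist ran the other way, with 94 and 1179 counts in these lines against 11233 to 29520 elsewhere. This pattern of sex-linked genes was thus not balanced between genotypes, and its part in the results was not tested. Sequencing lanes were 8, 6 and 7 for WT lines 36, 47 and 78 and 6, 7 and 6 for KO lines 33, 41 and 72. Fibroblast markers were abundant in every line, with the 9 genes summing to between 59337 and 93114 CPM, led by Col1a1. Other cells were present as well. All 10 macrophage markers had rows, summing to 2147 to 2358 CPM in the WT lines and 1106 to 1384 CPM in the KO lines. Of the 10, 9 did not overlap between genotypes, all lower in KO, as were 12.4% of all tested genes. An adjusted p-value of 0.05 in edgeR was passed by 5 of the 10, all lower in KO, against 0.528% of all tested genes. The 7 epithelial markers with a row summed to 1.84 to 2.61 CPM in the WT lines and 1.15 to 2.36 CPM in the KO lines. The 6 endothelial markers with a row summed to 12.7 to 14.1 CPM and 9.66 to 15.2 CPM, so both sums overlapped between genotypes. Of the 5 endothelial genes that were tested, 3 had a log2 fold change below 0 and 2 above it. Without overlap 2 of them were lower in KO and 0 higher, against 12.4% and 9.59% of all tested genes. In edgeR 2 were lower by 1.5-fold with an unadjusted p-value under 0.05 and 0 were higher, against 6.11% of all tested genes in either direction. None passed an adjusted p-value of 0.05.

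Every member was expressed in every line, and the receptors Pdgfrb and Fgfr1 had the highest levels. Levels are compared between genes as CPM per kilobase of annotated exon. Pdgfrb, the receptor for PDGF-BB and PDGF-DD, was highest at 114.7 ± 14.3 CPM per kb in the WT lines (SD, n = 3), above 98.1% of the tested genes. Fgfr1, the main FGF receptor of mesenchymal cells, followed at 31.5 ± 0.429 CPM per kb. Both stood clear of the next gene, since the WT ranges of Pdgfrb and Fgfr1 and of Fgfr1 and Pdgfra did not overlap. Pdgfra, which also binds PDGF-AA and PDGF-CC, stood at 18.1 ± 3.97 CPM per kb, Egfr at 14.3 ± 1.61, Fgf7 at 14.1 ± 3.93 and Pdgfc at 13.7 ± 2.74. Neighbours among these 4 genes overlapped between WT lines, so their order is not resolved.

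Fgf2, Pdgfa and Fgfr2 formed a lower set whose neighbours also overlapped, at 9.21 ± 0.807, 8.65 ± 0.614 and 8.47 ± 1.64 CPM per kb in the WT lines. Fgf10 came last at 2.75 ± 1.51 CPM per kb, and its WT range did not reach that of Fgfr2. The most abundant ligand per kilobase was thus Fgf7 in the WT lines, although not beyond the spread of Pdgfc, and in the KO lines Pdgfc had the highest mean of the ligands with 18.6 ± 3.14 against 9.41 ± 3.26 CPM per kb for Fgf7. In both genotypes Pdgfrb ranked first and Fgf10 last.

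**Figure D1:**
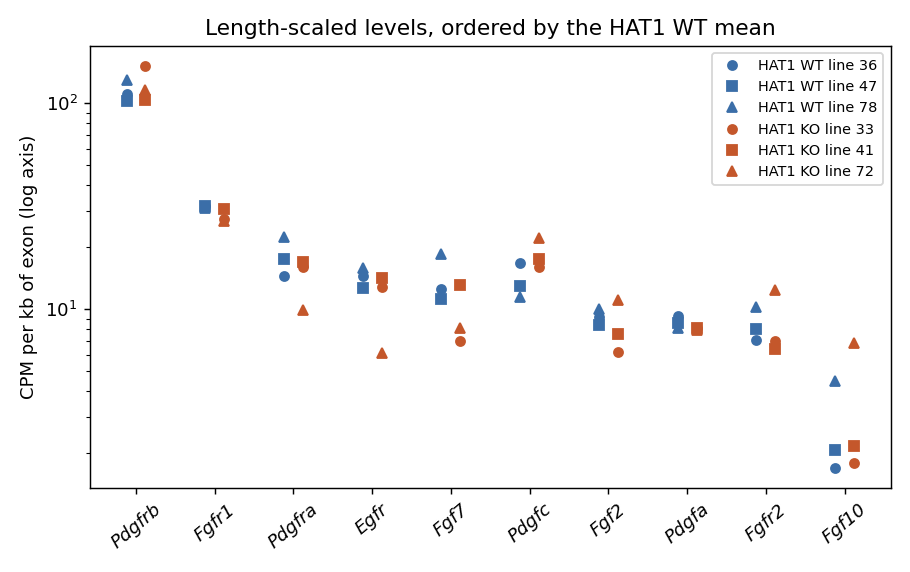
Length-scaled level of each member in CPM per kb of exon on a log axis, with one point per line (blue HAT1 WT, orange HAT1 KO) and genes ordered by the WT mean. Pdgfrb lies highest (WT mean 114.7) and Fgf10 lowest (WT mean 2.75), and the orange triangle of KO line 72 lies below the other lines for Egfr and Pdgfra. For Fgfr2 and Fgf10 it is the highest point, followed by the blue triangle of WT line 78.

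The comparison of the genotypes asked whether transcripts of these receptors and ligands differ between HAT1 KO and HAT1 WT lines. None of the 10 members passed an adjusted p-value of 0.05 in edgeR's quasi-likelihood test, where 0.528% of all tested genes did, and none passed in the DESeq2 Wald test or with voom. The smallest adjusted p-value was 0.336, that of Pdgfc. At an unadjusted p-value of 0.05 only Pdgfc passed in edgeR, against 14.6% of all tested genes, and none combined this with a change of 1.5-fold, against 6.11%. A single member, Fgfr1, did not overlap between genotypes, against 22.0% of all tested genes. The non-overlapping gene was lower in KO, as 12.4% of all tested genes were without overlap, while 9.59% were higher. With 10 genes, counts of 0 or 1 lie near these shares. The members' log2 fold changes, written as KO minus WT, ran from -0.58 to 0.44, with 6 below and 4 above 0 and a median of -0.13, beside a median of 0.0085 over all tested genes.

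How far the data limit a change differs between members. For Fgfr1, Pdgfa and Pdgfrb the 95% interval of the log2 fold change stayed within 1.5-fold in either direction (0.58 on the log2 scale). For the other 7 it reached past 1.5-fold on at least one side, so these lines do not limit the change to that size. In all 10 members the wider of the ranges within a genotype, on the log2 scale, exceeded the difference between the genotype means. This held also for Fgfr1, whose genotypes did not overlap. The share of all tested genes for which it held was not computed, so it is not read as a trait of the members.

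**Figure D2:**
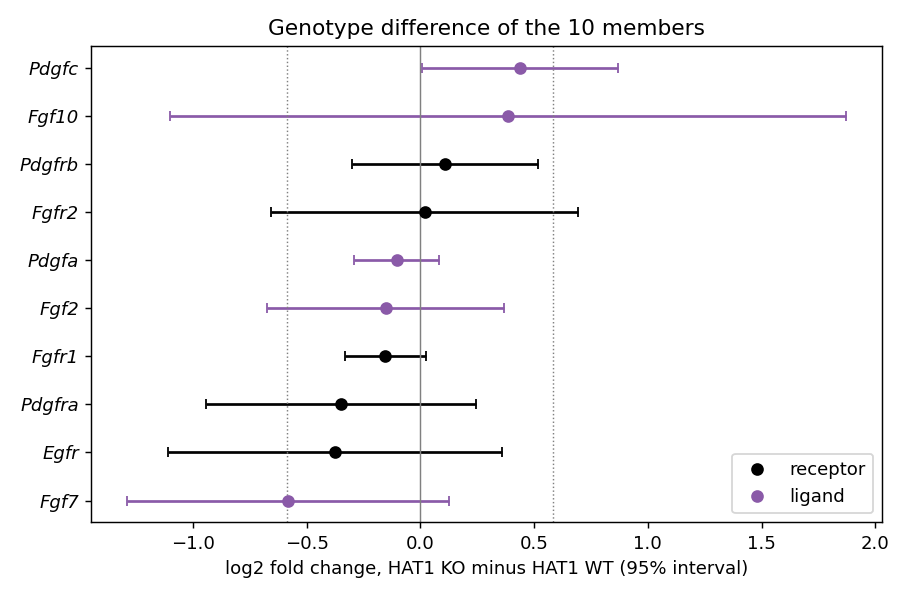
Log2 fold change (HAT1 KO minus HAT1 WT, horizontal axis) of each member with its 95% interval from edgeR, black for receptors and purple for ligands, with dotted lines at 1.5-fold. The interval of Pdgfc alone leaves 0 (0.0058 to 0.87), and that of Fgf10 is the widest (-1.10 to 1.87).

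Among the PDGF receptors, Pdgfra had 145.3, 176.2 and 224.2 CPM in WT lines 36, 47 and 78. It had 159.8, 169.7 and 98.9 CPM in KO lines 33, 41 and 72. KO lines 33 and 41 thus lay inside the WT range, and KO line 72 lay below every other line. The difference on the log2 scale was -0.35 (SE 0.25, edgeR adjusted p-value 0.564). It was -0.13 without KO line 72, -0.16 without WT line 78 and -0.12 with voom.

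Pdgfrb had 610.8, 560.0 and 714.2 CPM in the WT lines and 831.8, 565.8 and 633.9 CPM in the KO lines. KO line 33 was the highest of all and KO lines 41 and 72 lay inside the WT range. Its log2 fold change of 0.11 (SE 0.17, edgeR adjusted p-value 0.812) turned to -0.066 without KO line 33. Pdgfrb is also carried by pericytes and smooth muscle cells, and the 8 markers of those cells summed to between 4382 and 5322 CPM in the WT lines and between 5629 and 7077 CPM in the KO lines. Of these, Acta2, Myh11 and Tagln did not overlap between genotypes and were higher in KO, against 9.59% of all tested genes. The genotypes overlapped for the remaining markers, Rgs5, Cspg4, Kcnj8, Abcc9 and Notch3. Of the 8 markers, 7 had a log2 fold change above 0 and 1 below it, Kcnj8 at -0.33. The part of such cells in the level of Pdgfrb was not tested, and in bulk RNA a change in cell numbers and a change in RNA per cell cannot be told apart.

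The balance of the PDGF receptors was read as the log2 ratio of Pdgfrb to Pdgfra per kilobase. WT lines gave 2.94, 2.54 and 2.54, and KO lines gave 3.25, 2.61 and 3.55. Pdgfrb therefore exceeded Pdgfra in every line, by 6.39-fold in WT and 8.80-fold in KO as geometric means. The genotypes overlapped, with KO line 41 among the WT lines, and no test was made of the ratio.

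Of the PDGF ligands, Pdgfa, which encodes the chain of PDGF-AA, was the steadiest. It had 29.0, 26.6 and 25.3 CPM in the WT lines and 25.1, 25.3 and 24.8 CPM in the KO lines, a range of 1.17-fold over all 6. KO line 41 lay just above WT line 78, so the genotypes overlapped by a margin smaller than the differences among the WT lines. The log2 fold change was -0.10 (SE 0.078, adjusted p-value 0.587 in edgeR). Pdgfa shares 813 exonic bases with an antisense gene, and since use of strand by the counting was not stated, reads of the pair may not have been told apart.

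Pdgfc encodes a PDGF chain secreted in latent form and activated by proteases such as tissue plasminogen activator. It had 85.4, 65.9 and 58.4 CPM in the WT lines and 81.9, 89.4 and 112.6 CPM in the KO lines. KO lines 41 and 72 exceeded every WT line, and WT line 36 lay above KO line 33. Its mean was 69.9 ± 14.0 CPM in WT and 94.6 ± 16.0 CPM in KO (SD, n = 3 each), and its log2 fold change was 0.44 (SE 0.18). The unadjusted p-value in edgeR was 0.0478 and the adjusted one 0.336, so it did not pass. The unadjusted value was above 0.05 when any of WT line 47 (0.112), WT line 78 (0.119), KO line 41 (0.0622) or KO line 72 (0.105) was left out. Within lane 6 the KO lines 33 and 72 exceeded WT line 47 by 0.31 and 0.77 on the log2 scale, and within lane 7 KO line 41 exceeded WT line 78 by 0.62. Plat, the gene for tissue plasminogen activator, had 116.8 CPM in WT and 94.7 CPM in KO (adjusted p-value 0.332 in edgeR).

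Of the PDGF genes outside the members, Pdgfb averaged 30.3 ± 5.40 CPM in WT and 26.3 ± 5.81 CPM in KO, and Pdgfd 23.0 ± 5.45 and 26.2 ± 16.1 CPM. Pdgfrl, a receptor-like protein, ran from 21.0 to 84.8 CPM in the WT lines and from 24.7 to 87.3 CPM in the KO lines, so it varied about as widely in either genotype. None of these 3 passed in edgeR, where their adjusted p-values ran from 0.683 to 0.881.

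Fgfr1 was the most even receptor and the single member without overlap. It had 313.4, 313.8 and 306.3 CPM in the WT lines and 272.0, 302.0 and 264.7 CPM in the KO lines. KO line 41 came within 4.32 CPM of the lowest WT line, and KO lines 33 and 72 lay further below. The means were 311.2 ± 4.23 CPM and 279.6 ± 19.8 CPM, so KO stood at 89.8% of WT, with a log2 fold change of -0.15 (SE 0.074). The adjusted p-value in edgeR was 0.404, and with the unadjusted value of 0.0786 it passed neither threshold.

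Fgfr2, whose splice forms select between epithelial and mesenchymal FGFs, had 73.5, 82.7 and 106.3 CPM in the WT lines and 72.3, 65.8 and 127.8 CPM in the KO lines. KO line 72 was the highest and KO line 41 the lowest of all lines. The log2 fold change was 0.018 (SE 0.28, adjusted p-value 0.983 in edgeR) and became -0.33 without KO line 72. The counts are summed over splice forms, so the epithelial and mesenchymal forms cannot be told apart. Its gene model in GENCODE M21 runs from 130162451 to 133123350 on chromosome 7, because of a transcript that reaches the neighbouring Ctbp2, with which it shares 314 exonic bases.

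Fgfr1 exceeded Fgfr2 in every line. The log2 ratio per kilobase was 2.16, 1.99 and 1.59 for WT and 1.98, 2.26 and 1.12 for KO, a geometric mean of 3.76-fold in WT and 3.45-fold in KO. The ratio was lowest in KO line 72, and the difference of the genotypes turned from -0.13 to 0.21 on the log2 scale without that line. Of the remaining FGF receptors, Fgfr3 averaged 1.87 CPM in WT and 4.30 CPM in KO, where KO line 72 alone had 9.13 CPM and the other KO lines 2.02 and 1.75 CPM. Fgfrl1, an FGF receptor without a kinase domain, had 75.9 CPM in KO line 72 and 34.3 to 39.3 CPM in the other 5 lines. Fgfr4 averaged under 0.1 CPM in both genotypes and was not tested.

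Fgf2, the basic FGF that is also used to maintain cells in culture, had 62.4, 57.0 and 68.0 CPM in the WT lines. It had 41.8, 51.4 and 75.3 CPM in the KO lines, so that KO lines 33 and 41 lay below all WT lines and KO line 72 above them. The log2 fold change was -0.15 (SE 0.21, adjusted p-value 0.790 in edgeR). Without KO line 72 it was -0.41, with an unadjusted p-value of 0.0138 and an adjusted one of 0.169 in edgeR, and without KO line 33 it was 0.022. Fgf2 shares 640 exonic bases with Nudt6 on the opposite strand.

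Fgf7, or keratinocyte growth factor, had 40.6, 36.2 and 60.2 CPM in the WT lines and 22.7, 42.6 and 26.4 CPM in the KO lines. WT line 78 was highest, KO lines 33 and 72 were lowest, and KO line 41 lay inside the WT range. With all lines it had the largest difference below 0 of the members, with a log2 fold change of -0.58 (SE 0.29), and means of 45.6 ± 12.8 and 30.6 ± 10.6 CPM (SD, n = 3 each). The adjusted p-value was 0.426 in edgeR. The log2 fold change was -0.32 without WT line 78 and -0.89 without KO line 41. Without KO line 33 it was -0.40, nearer to 0 than that of Egfr (-0.50) and Pdgfra (-0.44) in the same fit. Within lane 6 KO lines 33 and 72 differed from WT line 47 by -0.67 and -0.46 on the log2 scale, and within lane 7 KO line 41 from WT line 78 by -0.50. With lane in the model the unadjusted p-value was 0.00739 and the adjusted one 0.582 in edgeR, and in that fit WT line 36, alone in its lane, carries no weight in the comparison.

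Fgf10, the mesenchymal FGF of limb and lung budding, varied most among the members, by 4.02-fold from the lowest to the highest line. It had 7.81, 9.51 and 20.6 CPM in the WT lines and 8.24, 10.0 and 31.4 CPM in the KO lines. One line of each genotype, WT line 78 and KO line 72, was high and the other 4 lines lay between 7.81 and 10.0 CPM. The log2 fold change of 0.39 (SE 0.61, adjusted p-value 0.815 in edgeR) turned to -0.46 without KO line 72. These are also the lines with the highest levels of Fgfr2, the receptor of FGF10, at 106.3 and 127.8 CPM against 65.8 to 82.7 CPM in the others.

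**Figure D3:**
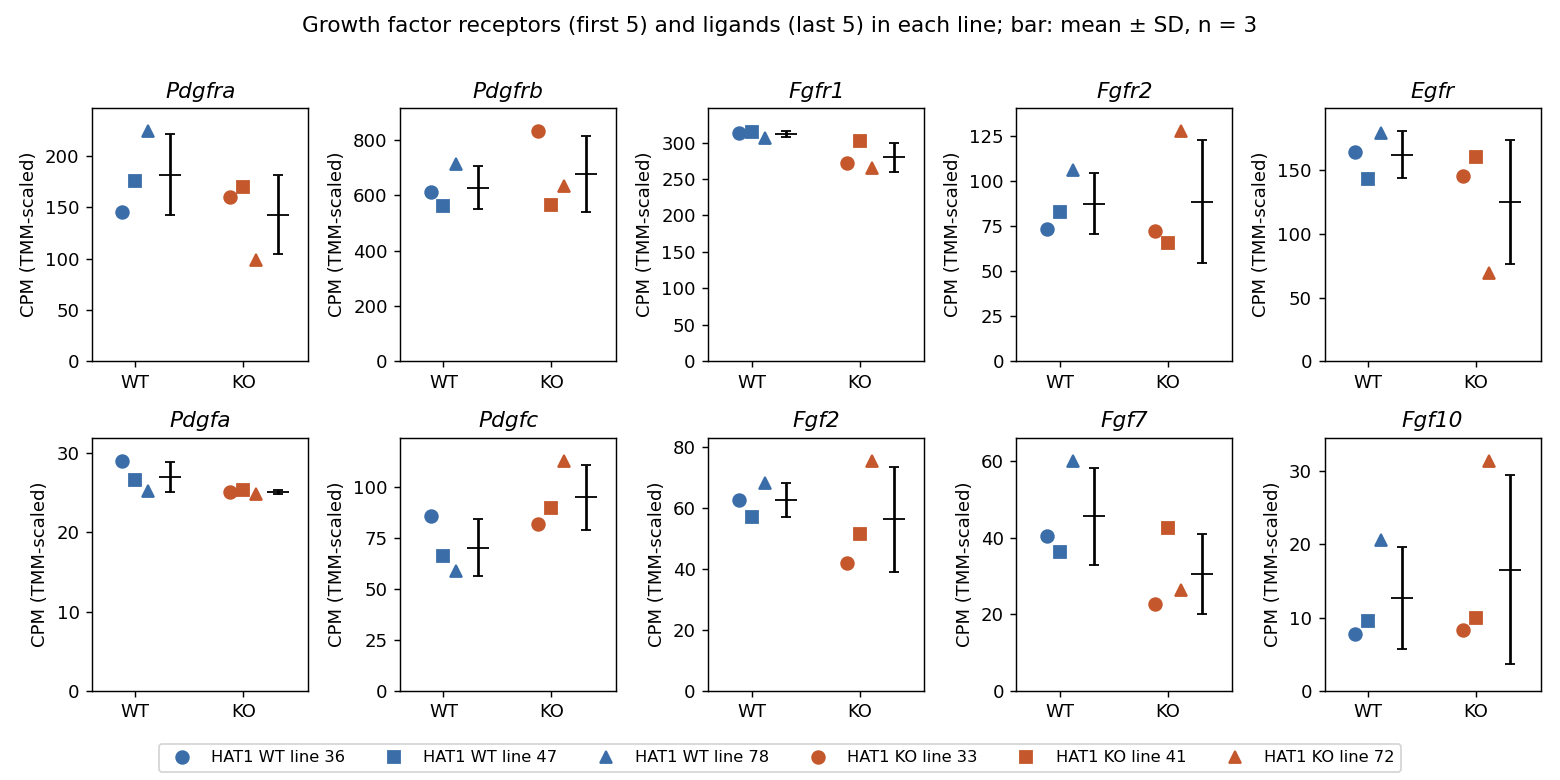
TMM-scaled CPM of the 5 receptors (upper row) and 5 ligands (lower row) in each line, with marker shape for the line, colour for the genotype (blue WT, orange KO) and a bar for the mean ± SD (n = 3). The genotypes overlap for every gene but Fgfr1, and KO line 72 (orange triangle) is lowest for Egfr at 69.6 CPM and highest for Fgf10 at 31.4 CPM.

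Other secreted FGFs were scarce. Of 18 listed, 10 had a row and 8 were tested, and outside the members Fgf18 was the most abundant per kilobase, at 1.89 ± 1.11 CPM per kb in WT and 1.67 ± 1.12 in KO. The mean level in WT was 0.525 CPM per kb for Fgf21, 0.338 for Fgf5, 0.275 for Fgf9 and 0.0689 for Fgf1. None of the 8 had an unadjusted p-value under 0.05 in edgeR. The intracellular FGF homologous factors, which bind sodium channels and are not secreted, held members that did. Fgf13 had 4.10, 3.76 and 1.63 CPM in the WT lines and 1.79, 1.44 and 1.43 CPM in the KO lines, so WT line 78 lay with the KO lines. The log2 fold change of Fgf13 was -1.03 (edgeR adjusted p-value 0.293). Fgf13 lies on the X chromosome, and the lines where it was high, WT lines 36 and 47, were also those high in Y-linked genes and low in Xist. The part of that pattern in its values was not tested. Fgf12 was near the limit of detection, at 0.131 CPM in WT and 0.339 CPM in KO, with a log2 fold change of 1.33 (edgeR adjusted p-value 0.328).

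Egfr, the receptor for EGF, TGF-alpha and HB-EGF, had 164.6, 143.2 and 179.5 CPM in the WT lines and 145.8, 160.7 and 69.6 CPM in the KO lines. KO lines 33 and 41 lay inside the WT range and KO line 72 was far below it. Its log2 fold change of -0.37 (SE 0.30, edgeR adjusted p-value 0.618) ran from -0.58 to -0.072 over the alternative settings. Per kilobase, Egfr stood near Pdgfra, with a log2 ratio of 0.0044, -0.48 and -0.50 for WT and -0.31, -0.25 and -0.68 for KO.

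Erbb2, the co-receptor of the family that binds no ligand itself, had 55.1, 53.3 and 50.7 CPM in the WT lines and 60.8, 59.1 and 60.8 CPM in the KO lines. The genotypes did not overlap, with KO higher, as held for 9.59% of all tested genes. The log2 fold change of Erbb2 was 0.18 (SE 0.059, edgeR adjusted p-value 0.246). Erbb3 averaged 2.19 CPM in WT and 3.57 CPM in KO, where KO line 33 alone had 9.89 CPM. Of the ligands Hbegf was the most abundant per kilobase, at 6.19 ± 1.37 CPM per kb in WT. It had 36.8, 29.4 and 23.6 CPM in the WT lines and 27.4, 26.8 and 83.5 CPM in the KO lines. Ereg had 31.3 CPM in KO line 72 against 6.60 to 16.4 CPM elsewhere, and Nrg1, a ligand of ERBB3 and ERBB4, 8.97 CPM there against 10.4 to 25.2 CPM. Areg, Btc, Egf, Nrg2, Nrg4 and Tgfa averaged below 1 CPM in both genotypes.

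The differences between lines of a genotype were described by counting extremes. KO line 72 was the highest line for Pdgfc, Fgfr2, Fgf2 and Fgf10 and the lowest for Pdgfra, Pdgfa, Fgfr1 and Egfr. It was thus at an extreme for 8 of the 10 members, and it held an extreme for 51.5% of all tested genes. WT line 78 was highest for Pdgfra, Fgf7 and Egfr and lowest for Pdgfc, 4 of 10, where it was extreme for 40.4% of all tested genes. Relative to the mean of the 6 lines, KO line 72 lay at -0.99 for Egfr, -0.67 for Pdgfra and 1.32 for Fgf10 on the log2 scale.

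**Figure D4:**
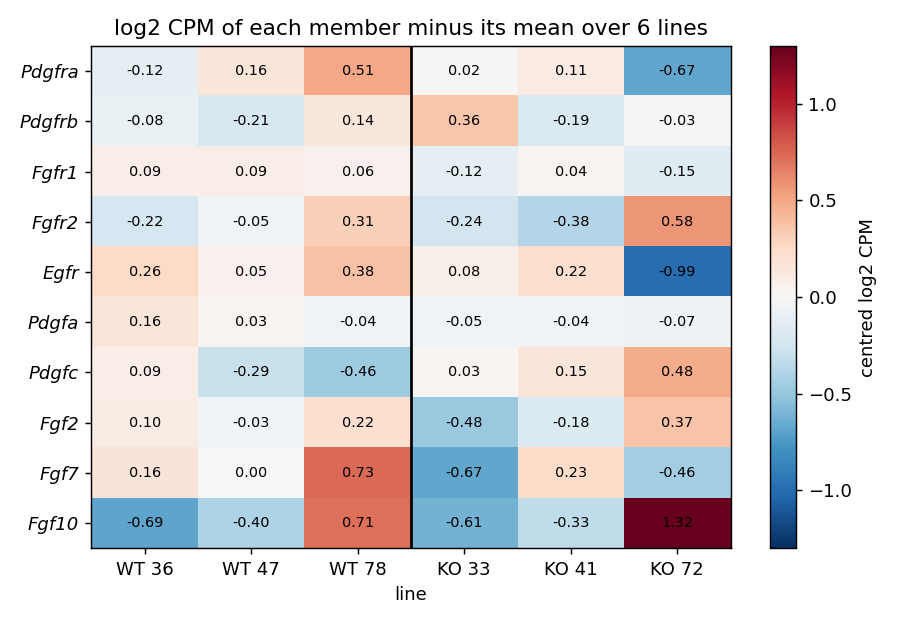
Log2 CPM of each member (rows, receptors above ligands) in each line (columns, WT left of the black rule and KO right of it) minus that member's mean over the 6 lines, with the value printed in each cell. The column of KO line 72 holds the lowest value (-0.99, Egfr) and the highest (1.32, Fgf10), while Fgfr1 and Pdgfa stay within 0.16 of 0 in all lines.

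The nearest tested genes were found for each receptor by the root mean square difference of centred log2 CPM over the 6 lines, a description in which close neighbours are easily found with so few lines. For Pdgfra they were Gstk1 (0.051) and Nap1l5 (0.054), where the median over all genes was 0.39. For Pdgfrb they were Cldn15 (0.054) and Ddx59 (0.060), and for Fgfr1 Oga (0.013) and Tes (0.024). For Fgfr2 they were Ppp1r26 (0.080) and Fyco1 (0.091), and for Egfr Tmem200b (0.068) and Nfia (0.088).

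Upstream sequence is shown for Pdgfc, which had the smallest p-value, for Fgf7, which had the largest difference below 0 with all lines, and for Egfr and Fgf10, which varied most between KO lines. Each is the 250 bases before the start of transcription in RefSeq, from the GRCm38.p6 assembly and written 5′ to 3′ along the gene, all on the plus strand. Capitals mark any match, on either strand, to 4 short motifs. They were the Sp1 motif GGGCGG, the core promoter motif TATAAA, the AP-1 motif TGANTCA and the ETS motif CCGGAAG. The windows lie at chr3:81036166-81036415 (Pdgfc), chr2:126034408-126034657 (Fgf7), chr11:16751953-16752202 (Egfr) and chr13:118714449-118714698 (Fgf10), and none overlaps an annotated exon. The Fgf10 window lies inside the longer GENCODE model of that gene, which starts further upstream.
Pdgfc: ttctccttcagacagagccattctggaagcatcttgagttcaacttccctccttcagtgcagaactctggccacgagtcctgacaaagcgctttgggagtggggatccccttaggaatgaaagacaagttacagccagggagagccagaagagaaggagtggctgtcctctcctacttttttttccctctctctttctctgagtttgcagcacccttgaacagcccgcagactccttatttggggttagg
Fgf7: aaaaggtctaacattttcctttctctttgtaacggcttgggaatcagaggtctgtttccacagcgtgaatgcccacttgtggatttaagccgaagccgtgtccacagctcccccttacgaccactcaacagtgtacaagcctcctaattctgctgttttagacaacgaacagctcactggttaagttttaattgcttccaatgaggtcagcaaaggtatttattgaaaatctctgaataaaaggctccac
Egfr: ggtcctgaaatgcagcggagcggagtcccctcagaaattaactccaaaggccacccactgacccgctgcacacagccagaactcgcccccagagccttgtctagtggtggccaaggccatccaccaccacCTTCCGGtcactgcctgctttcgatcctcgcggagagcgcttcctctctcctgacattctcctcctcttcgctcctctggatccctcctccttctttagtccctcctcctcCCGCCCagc
Fgf10: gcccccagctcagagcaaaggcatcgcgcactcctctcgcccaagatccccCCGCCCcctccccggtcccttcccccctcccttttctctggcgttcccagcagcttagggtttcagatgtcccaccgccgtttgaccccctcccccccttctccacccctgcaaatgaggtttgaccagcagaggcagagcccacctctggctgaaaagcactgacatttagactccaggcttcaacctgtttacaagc

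The Egfr window held 1 GGGCGG and 1 CCGGAAG and the Fgf10 window 1 GGGCGG, while the Pdgfc and Fgf7 windows held none of the 4 motifs. Over 32851 promoter windows of the same length, 32.7% held GGGCGG, 12.4% TATAAA, 6.75% TGANTCA and 6.91% CCGGAAG. The share of G and C was 60.8% for Egfr, 61.2% for Fgf10, 50.8% for Pdgfc and 43.6% for Fgf7, beside a median of 52.4%. Of the 10 members 8 had an entry, and among these GGGCGG was found for Egfr, Fgf10, Fgf2 and Pdgfa and for no window of Pdgfc, Pdgfra, Fgfr2 or Fgf7. A match of letters is a description and not a binding site.

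The other genes of the pathway were read from 12 lists that also hold the members. Outside the members 121 of 130 listed genes had a row and 113 were tested. None passed an adjusted p-value of 0.05 in edgeR, against 0.528% of all tested genes, while 8 (7.08%) passed in the DESeq2 Wald test and 2 (1.77%) with voom. Over all tested genes these fits called 5.88% and 1.81%, so the pathway genes lay near the background in both. At an unadjusted p-value of 0.05, 13 were lower and 3 were higher in KO in edgeR, against 8.77% and 5.88% of all tested genes. Their median log2 fold change was -0.040. With a change of 1.5-fold as well, Fgf13 and Etv1 were lower and Fgf12 was higher, against 6.11% of all tested genes in either direction.

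Etv1 and Etv5 encode ETS factors whose genes answer to FGF signalling through ERK. Etv1 had 10.97, 12.4 and 11.7 CPM in the WT lines and 6.19, 7.68 and 6.84 CPM in the KO lines, and Etv5 had 71.9, 70.3 and 63.7 CPM and 47.1, 55.9 and 49.4 CPM. Neither gene overlapped between the genotypes, as held in the same direction for 12.4% of all tested genes. Both were among the pathway genes that the DESeq2 Wald test called, so their lack of overlap is not independent of that call. The log2 fold changes were -0.76 (SE 0.12) and -0.43 (SE 0.088), and edgeR gave adjusted p-values of 0.0669 and 0.116. The third gene of that group, Etv4, had 10.5 CPM in WT and 12.4 CPM in KO, with a log2 fold change of 0.24 (adjusted p-value 0.624 in edgeR). The 11 ERK-responsive genes had a median log2 fold change of 0.10, with 5 below and 6 above 0.

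Several genes of the relay were chosen for mention after their values were seen, since the DESeq2 Wald test called them. Gab2, a docking protein, had 69.1, 61.5 and 68.8 CPM in the WT lines and 47.9, 51.7 and 44.3 CPM in the KO lines (log2 fold change -0.47, adjusted p-value 0.0870 in edgeR). Rps6ka1, which encodes the ERK-activated kinase RSK1, had 45.4 to 49.3 CPM in WT and 32.4 to 37.1 CPM in KO (log2 fold change -0.48, adjusted p-value 0.0742 in edgeR). Grb2, the adaptor that links receptors to Ras, had 108.2 to 113.1 CPM in WT and 87.2 to 94.0 CPM in KO (log2 fold change -0.29, adjusted p-value 0.113 in edgeR). Rasa1, a brake on Ras, had a log2 fold change of -0.41, Cbl, which marks receptors for degradation, -0.20, and Adam17, which sheds EGF-family ligands, -0.47 (edgeR adjusted p-values from 0.114 to 0.194). Their KO lines lay below their WT lines, as for 12.4% of all tested genes, but these 6 genes were picked because a test had called them lower. The macrophage markers split the genotypes in the same way, at 1106 to 1384 CPM in KO against 2147 to 2358 CPM in WT, and their part in these values was not tested.

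Among the feedback inhibitors, 16 of 19 had a log2 fold change below 0, with a median of -0.17, and 2 had an unadjusted p-value under 0.05 in edgeR. Over all tested genes 48.5% were below 0 and 14.6% had such a p-value. Dusp6, a phosphatase of ERK, averaged 53.4 ± 6.68 CPM in WT and 42.1 ± 10.2 CPM in KO (adjusted p-value 0.460 in edgeR), and Spry4 20.7 ± 0.768 and 20.1 ± 1.75 CPM. Of 15 Ras-MAPK and AKT kinase genes, 7 were below and 8 above 0, with a median of 0.026. The 16 heparan sulphate genes, whose products help FGFs to bind their receptors, were split evenly at 8 and 8, with a median of 0.0051. The 19 receptor-proximal genes had a median of -0.041. All 12 proliferation markers had log2 fold changes above 0, with a sum of 534.4 to 800.4 CPM in the WT lines and 824.6 to 1115 CPM in the KO lines, and none passed an adjusted p-value of 0.05 in edgeR, while 9 had an unadjusted p-value under 0.05 and were higher in KO, against 5.88% of all tested genes.

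**Figure D5:**
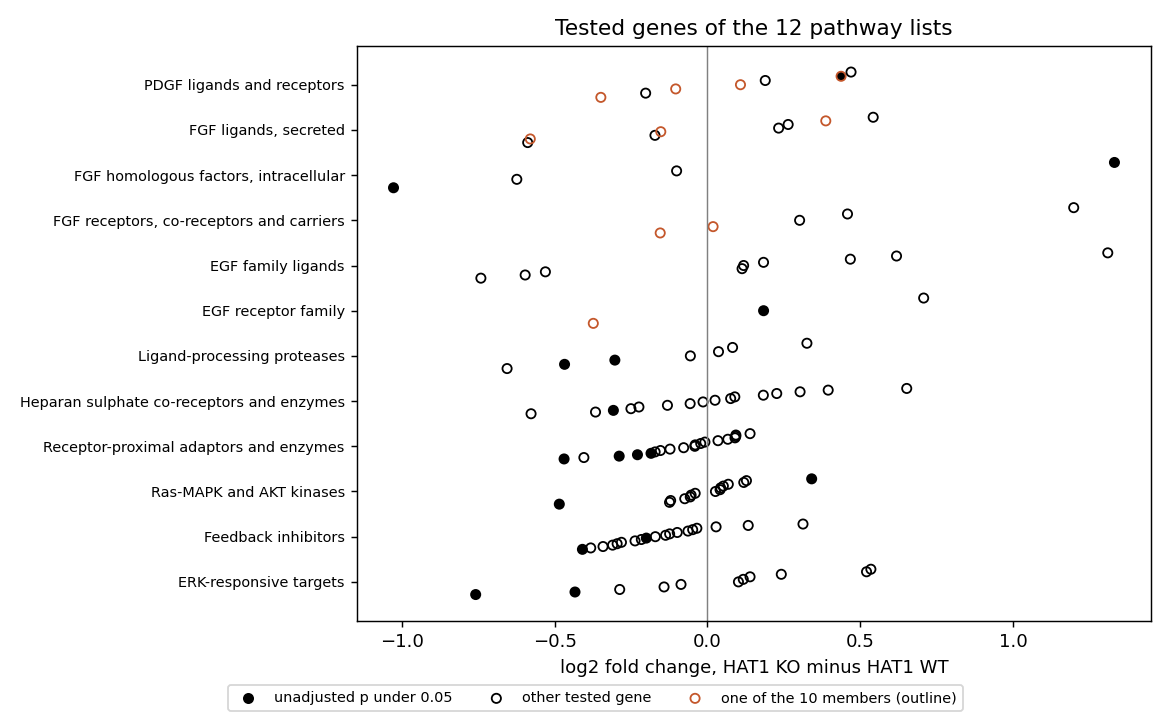
Log2 fold change (HAT1 KO minus HAT1 WT, horizontal axis) of each tested gene in the 12 pathway lists (rows), filled where the unadjusted p-value was under 0.05 in edgeR and outlined in orange for the 10 members. The feedback inhibitors lie mostly below 0 (16 of 19), and the gene farthest to the left among the ERK-responsive targets is Etv1 at -0.76.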

How the data were processed

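RNA was sequenced from 3 HAT1 WT and 3 HAT1 KO lines of primary mouse embryonic fibroblasts. The authors deposited raw counts per gene with no normalization. Their processing notes name edgeR and mm10, while the aligner, counter and use of strand are not given in the sources used here. The deposited table also held a log2 fold change, a log2 mean CPM, an F score and p-values and q-values of the authors' own comparison, which were not used. Sample columns were matched to labels by genotype and line number.

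Counts were tested on the whole table in R 4.3.3, using edgeR 4.0.16. The filterByExpr step left 14773 of 17512 genes, which were scaled by TMM and fitted by glmQLFit and glmQLFTest on genotype alone, two-sided, with Benjamini-Hochberg adjustment over all tested genes at 0.05. A second threshold joined a 1.5-fold change to an unadjusted p-value of 0.05. Standard errors came from the log2 fold change and the root of its F statistic. Intervals used the total degrees of freedom of the fit, which add a prior shared over genes to the residual ones. The p-values of this fit compare the genotype difference with the spread between lines within a genotype, moderated over all tested genes. They rest on these 6 lines alone. Exon lengths and positions are from GENCODE M21 (GRCm38), and all 17512 identifiers matched. Alternatives used DESeq2 1.42.0 and limma 3.58.1 (voom), and the tests were checked on simulated counts.

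The members and the gene lists were chosen with earlier results of these data known. Named genes were the members, pathway genes past an adjusted p-value of 0.05 or, up to 4 per list, past both thresholds of the second rule, other expressed ligands and receptors, Hat1, and the 2 nearest genes of each receptor. Relay genes, feedback inhibitors, Plat and markers named beyond these were chosen after their values were seen. Protein sequences were not analysed here. Total counts of 67720628 to 98786746 per library make counting error small for the members, the least abundant of which had at least 589 counts in each line.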

Additional observations from a re-analysis of the deposited data

How the results depend on the processing

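Of 150 values of the members under 15 alternatives, 141 kept direction and stayed short of an adjusted p-value of 0.05, and 9 changed direction. Fgfr2, at 0.018, became -0.13 with voom and sample quality weights, -0.15 with lane in the model and -0.029 with a replicate block made from the first digit of each line number, and ran from -0.33 to 0.19 when single lines were left out. In such fits Pdgfrb ran from -0.066 to 0.23, Fgf2 from -0.41 to 0.022 and Fgf10 from -0.46 to 0.93, while Pdgfra (-0.49 to -0.13), Egfr (-0.58 to -0.072), Fgf7 (-0.89 to -0.32), Fgfr1 (-0.21 to -0.11), Pdgfa (-0.14 to -0.044) and Pdgfc (0.31 to 0.61) kept their direction.

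No member passed an adjusted p-value of 0.05 under any alternative. In several of these fits few or no genes passed at all, so there the result says little about the members. The share of tested genes that passed was 0.00% with the replicate block and without WT line 36, WT line 47 or KO line 33. It was 0.0135% with lane in the model, 0.0267% without WT line 78 and 0.0398% without KO line 41. The count at an unadjusted p-value of 0.05, which was 1, became 0 with voom and with the replicate block, where 17.7% and 12% of all tested genes passed, and 2 with lane in the model (Pdgfc and Fgf7), where 6.30% passed. It ran from 0 to 2 without single lines, against 9.58% to 18.5%. Without KO line 41 it counted Fgfr1 and Fgf7 (13.7% of all genes), and without KO line 72 Fgf2. With the 1.5-fold threshold the count was 1 without WT line 36 (Pdgfc) and 1 without KO line 41 (Fgf7), against 4.58% and 7.24% of all genes, and otherwise 0, also at 2-fold. The number of members without overlap was 2 with scaling by library size alone (Pdgfa and Fgfr1, against 21.8% of all genes) and ran from 2 to 3 without single lines, with 3 without WT line 36 (Pdgfra, Fgfr1 and Pdgfc) and 3 without KO line 72 (Fgfr1, Fgfr2 and Fgf2), where 30.0% and 38.1% of all genes did not overlap. The other pathway genes with an adjusted p-value under 0.05 were 8 in the DESeq2 Wald test (Adam17, Grb2, Gab2, Rps6ka1, Cbl, Rasa1, Etv1 and Etv5) and 2 with voom (Rps6ka1 and Etv1), against 5.88% and 1.81% of all tested genes. The cause was not tested. The labels give the genotypes no shared replicate numbers, so the replicate block pairs lines by assumption. Without single lines the KO minus WT difference of the log2 ratio ran from 0.25 to 0.73 for Pdgfrb to Pdgfra. That of Fgfr1 to Fgfr2 changed sign without KO line 72 (0.21), and that of Egfr to Pdgfra without WT line 36 (0.071) or KO line 72 (0.041). The number of lines, 3 per genotype, limits the precision.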
